A study of Homo sapiens with 12 samples.

Results

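The genes that write, copy and remove DNA methylation were followed in HL-60 cells, an established human acute myeloid leukaemia (AML) line. The 10 genes were chosen by symbol from the 58233 genes of the expression table, and each symbol occurred there. They were DNMT1, DNMT3A, DNMT3B, UHRF1 and HELLS on the writing side, TET1, TET2 and TET3 on the removing side, and IDH1 and IDH2, whose product the TET enzymes need. The 12 libraries came from cells left untreated, given 100 nM all-trans retinoic acid (ATRA, the ligand of the retinoic acid receptors), given 500 nM palbociclib (which blocks the cell cycle kinases CDK4 and CDK6) or given both agents at these doses. Each group had 3 libraries, taken after 3 h, and all were labelled as wild type cells grown in RPMI with fetal serum. The labels name no vehicle for the untreated cells and do not say whether the 3 replicates of a group were separate cultures. The study's methods describe its data in general as coming from independent experiments, without a statement on what the RNA replicates were. The p-values below therefore measure the spread between these libraries, which may be technical.

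DNA methylation is set on cytosines by the DNMT3 enzymes and copied after replication by DNMT1. UHRF1 recognises freshly replicated sites that carry the mark on the old strand only and brings DNMT1 to them, and HELLS is a chromatin remodeller that opens packed chromatin for this copying. The TET enzymes oxidise the methyl group in a reaction that consumes 2-oxoglutarate, which IDH1 makes in the cytosol and IDH2 in mitochondria. DNMT3A, TET2, IDH1 and IDH2 are recurrently mutated in AML. The table holds transcript levels and neither methylation nor variants.

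The values are RPKM (reads normalised to gene length and library size), which the authors deposited as whole numbers, so 1 RPKM is the smallest step and the read depth of a library is unknown. Over all genes, a library summed to between 358455 and 390247 RPKM. No 2 libraries were duplicates. Replicate 1 of each treated group stood apart from the other replicates: over 7055 genes it shared 16.2% to 16.7% of its values with replicates 2 and 3 of its group, which shared 28.3% to 34.2% with each other. Of 8 myeloid markers, MPO was at 1077 to 1579 RPKM, and ELANE was listed at 0 in 7 libraries, including all untreated ones, and at 1 in the other 5. Their summed level was 1626 to 1857 RPKM in untreated cells and 1485 to 1686 with ATRA. It was 1790 to 2024 with palbociclib and 1511 to 1769 with both, and its part in the results was not tested. MPO made up most of this sum, and the markers differed in direction. With ATRA the means of MPO, CTSG, CD33 and MYB (28.3 against 58.7 RPKM) were lower than in untreated cells. Those of PRTN3 (276.0 against 222.3 RPKM), SPI1 (105.0 against 83.7 RPKM), AZU1 and ELANE were higher. The 12 markers of T cells, erythroid cells, fibroblasts and epithelium were at 0 in every library, and of 3 B cell markers only CD79A was listed, at 1 in each library with ATRA.

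UHRF1 and HELLS were the members whose upstream sequence held the recognition word of the E2F factors, which control genes of DNA replication and are held back by RB, the protein that CDK4 and CDK6 phosphorylate. The word was spelled TTTGGCGC, TTTCGCGC, TTTCCCGC or TTTGCCGC and was searched on both strands in the 250 bases before each RefSeq start on GRCh38.p14. It was found in 1 of 1 HELLS window, in 2 of 3 UHRF1 windows and in 0 of the 18 windows of the other 8 genes, against 979 of 35116 windows of all genes (2.79%). The 30 bases around each word are given on the strand of the gene and with the word in capitals. DNMT1, whose mean with palbociclib was 79.2% of the untreated mean, had 0 such words in its 1 window. Whether the word bears on the level of any member was not tested. A match is a stretch of letters and not a measured binding site.
HELLS chr10:94545701-94545730, word 76 bases before the start: aaccgcaagctGCGCCAAAtctcgcgcagc
HELLS chr10:94545769-94545798, word 8 bases before the start: gatgacaggatTTTCCCGCgaaggagaagc
UHRF1 chr19:4909476-4909505, word 14 bases before one start: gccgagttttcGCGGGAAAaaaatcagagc
UHRF1 chr19:4909973-4910002, word 160 bases before another start: cccgagcccgaTTTCGCGCgccctgagttc
The retinoic acid receptor half-site pair spaced by 5 bases (DR5) was in none of the windows of the 10 genes and in 0.074% of all windows.

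In untreated cells UHRF1 was the most abundant of the 10 genes, at 53.7 ± 5.13 RPKM (mean ± SD, n = 3). It was followed by IDH2 at 40.7 ± 2.31, DNMT1 at 35.3 ± 1.53 and IDH1 at 33.7 ± 4.73 RPKM, and the libraries of DNMT1 and IDH1 overlapped. TET3 lay at 7.0 ± 1.0 and HELLS at 5.33 ± 0.577 RPKM, again with overlapping libraries. TET2, at 3.33 ± 0.577, and DNMT3B, at 2.67 ± 0.577 RPKM, also overlapped, whereas DNMT3A and TET1 were listed at 0. UHRF1, DNMT1, IDH1 and IDH2 were thus measured well above the rounding step of 1 RPKM, and the other genes within a few steps of 0.

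**Figure D1:**
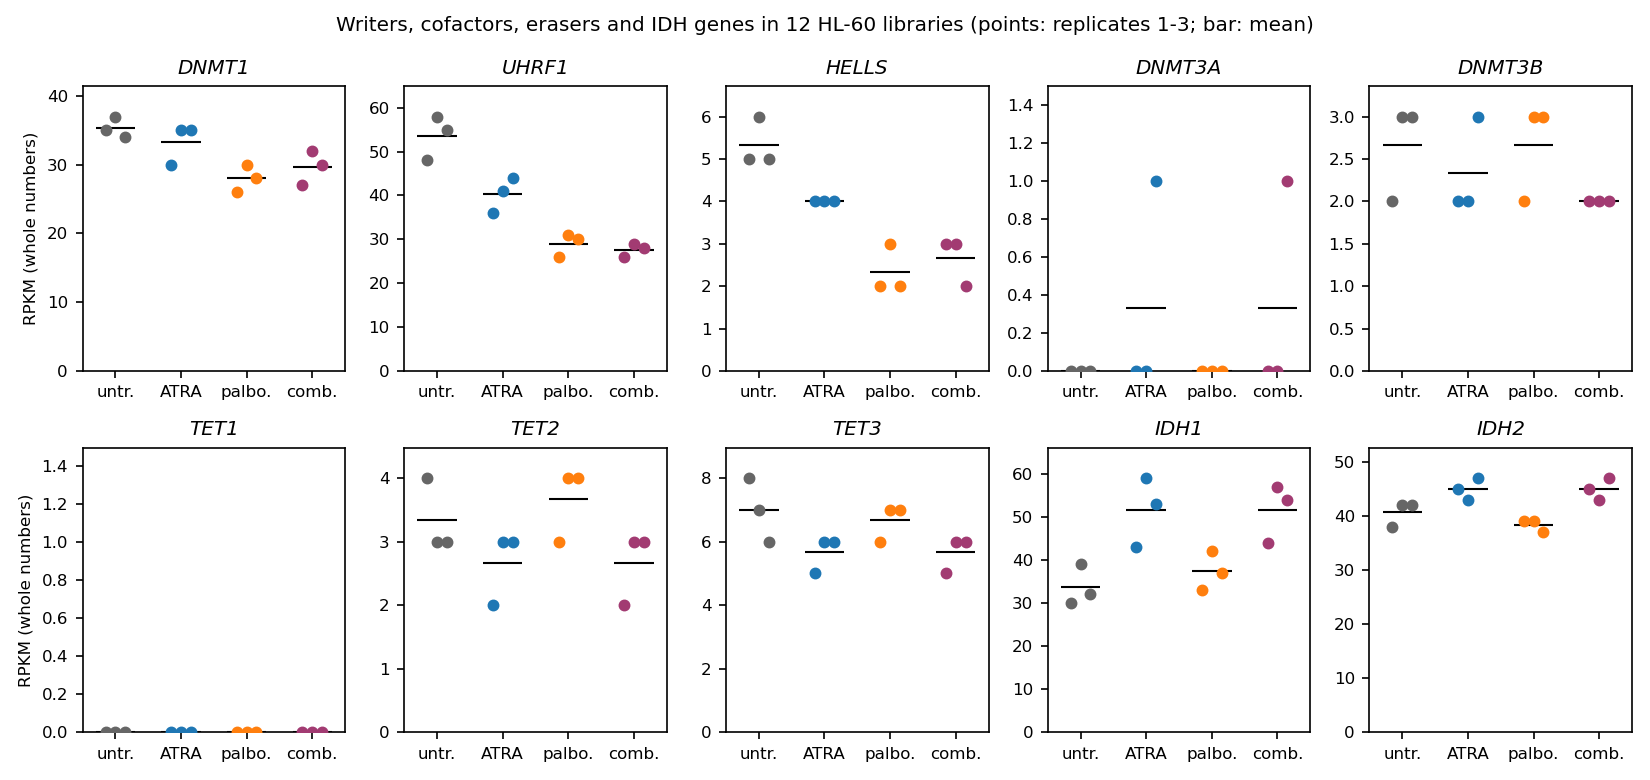
RPKM (vertical axes, each from 0) of the 10 genes in untreated (untr.), ATRA, palbociclib (palbo.) and combination (comb.) libraries; points are replicates 1 to 3 from left to right and bars are means. UHRF1 is at 48 to 58 RPKM in untreated libraries and at 26 to 31 with palbociclib, alone or with ATRA, while IDH1 is at 30 to 39 in untreated libraries and at 43 to 59 with ATRA, alone or with palbociclib.

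Differences were tested with limma on log2(RPKM + 0.1) of all 12 libraries, over the 7820 genes with at least 5 RPKM in at least 3 libraries, and a gene was called at a Benjamini-Hochberg adjusted p under 0.05 within its comparison. Log2 differences refer to RPKM + 0.1, so those of low genes come out smaller than the change in RPKM itself. DNMT1, UHRF1, HELLS, TET3, IDH1 and IDH2 passed the filter, and DNMT3A, DNMT3B, TET1 and TET2 did not. HELLS passed only through the untreated group, where it was highest, so its tests cannot count as support for a lower level under treatment. The 3 comparisons with untreated cells share the untreated libraries and are therefore not independent of each other.

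UHRF1 had values of 48, 58 and 55 RPKM in the untreated libraries 1 to 3, 36, 41 and 44 with ATRA, 26, 31 and 30 with palbociclib, and 26, 29 and 28 with the combination. Each treated group lay below the untreated one without overlap, and the ATRA libraries lay above those with palbociclib. With palbociclib the mean was 54.0% of the untreated mean (log2 difference -0.89, SE 0.098, 95% interval -1.10 to -0.67, limma adjusted p = 0.000672), and with the combination it was 51.6% (-0.95, interval -1.17 to -0.73, adjusted p = 5.2e-05). Both calls were made in all 23 alternative settings tried at this threshold, which include the fit without the treated replicate 1 libraries. With ATRA alone it was 75.2% (-0.41, interval -0.63 to -0.19, adjusted p = 0.0132), a call that was lost without untreated replicate 2 (adjusted p = 0.0566) or when only both groups compared were fitted (0.0558). In these bulk samples fewer cells that express a gene and less RNA per cell cannot be told apart.

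UHRF1 (ENSG00000276043) lies on chromosome 19 at 4903080 to 4962154, plus strand, in GENCODE v44 on GRCh38. A processed pseudogene, listed in the file as AC112777.1 (ENSG00000256663), matches its transcript over 1423 bases at 99.4% identity and was itself listed at 5 to 12 RPKM. Reads of the matching stretch could have been assigned to either gene or to neither, so the level of UHRF1 is uncertain by an unknown amount. The mean of the pseudogene was 11 RPKM in untreated cells, 8 with ATRA, 5.67 with palbociclib and 5.33 with the combination, the same order as for UHRF1.

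HELLS (ENSG00000119969, chromosome 10, 94545329 to 94613905, plus strand) was listed at 5, 6 and 5 RPKM in untreated libraries, at 4 in every ATRA library, at 2, 3 and 2 with palbociclib and at 3, 3 and 2 with the combination. The groups with palbociclib, the ATRA group and the untreated group did not overlap, although they were only 1 to 4 steps of the rounding apart. The log2 difference from untreated cells was -1.18 with palbociclib (SE 0.188, limma adjusted p = 0.00636) and -0.99 with the combination (adjusted p = 0.0026). With ATRA it was -0.40 (95% interval -0.82 to 0.016, adjusted p = 0.168), which was not called. With only both groups compared in the fit this adjusted p was 0.0317. With the filter at 1 RPKM, which HELLS passed in every library, the limma adjusted p-values were 0.0117 with palbociclib, 0.00669 with the combination and 0.234 with ATRA. A lncRNA (ENSG00000244332, listed at 0 RPKM throughout) shares 438 exonic bases with HELLS on the same strand. Reads there may have been assigned to neither gene.

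DNMT1 (ENSG00000130816, chromosome 19, 10133342 to 10231286, minus strand) showed a smaller difference. Its values were 35, 37 and 34 RPKM in untreated libraries, 30, 35 and 35 with ATRA, 26, 30 and 28 with palbociclib and 27, 32 and 30 with the combination. Untreated libraries overlapped with those of ATRA and not with those of palbociclib or the combination. The mean was 84.0% of untreated with the combination (log2 difference -0.25, SE 0.085, interval -0.44 to -0.066, limma adjusted p = 0.0442), and this call was made in only 9 of 23 alternative settings (adjusted p 0.0033 to 0.138). Leaving out any 1 of untreated replicates 1, 2 or 3, ATRA replicates 2 or 3, palbociclib replicate 3 or combination replicates 1 or 3 ended it, with adjusted p-values of 0.0536 to 0.138. With palbociclib the mean was lower still, at 79.2% (-0.34, interval -0.52 to -0.15, adjusted p = 0.0542), and the threshold was missed. It was passed without ATRA replicate 1 (0.041), without combination replicate 1 (0.046) and without the replicate 1 libraries of all 3 treated groups (0.0288). With ATRA the log2 difference was -0.087 (interval -0.27 to 0.10, adjusted p = 0.533). S1PR2 (0 or 1 RPKM) shares 83 exonic bases with DNMT1 on the same strand.

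The de novo enzymes were near the floor of the table. DNMT3B (ENSG00000088305, chromosome 20, 32762385 to 32809359, plus strand) was at 2, 3 and 3 RPKM in untreated libraries, 2, 2 and 3 with ATRA, 2, 3 and 3 with palbociclib and 2 in each combination library. DNMT3A (ENSG00000119772, chromosome 2, 25227855 to 25342590, minus strand) was listed at 0 in 10 libraries and at 1 in replicate 3 of ATRA and of the combination. DNMT3L, the catalytically inactive partner of the de novo enzymes, was at 0 throughout. A gene at 0 here lies below the rounding step, and a difference smaller than 1 RPKM was not detectable. With every gene above 0 in the fit, DNMT3A and DNMT3B were not called in any of the 6 comparisons.

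Among the erasers, TET3 (ENSG00000187605, chromosome 2, 73984910 to 74108176, plus strand) was the most abundant. It had 8, 7 and 6 RPKM in untreated libraries, 5, 6 and 6 with ATRA, 6, 7 and 7 with palbociclib and 5, 6 and 6 with the combination. The groups overlapped, and the log2 difference of -0.30 from untreated cells, the same with ATRA and with the combination (interval -0.57 to -0.017), had limma adjusted p-values of 0.129 and 0.103. Without untreated replicate 3 the second was 0.0444. A lncRNA (ENSG00000235499, 1 to 4 RPKM) shares 390 exonic bases with TET3 on the same strand, so reads there may have been assigned to neither. TET2 (ENSG00000168769, chromosome 4, 105145875 to 105279816, plus strand) had 4, 3 and 3, then 2, 3 and 3, then 3, 4 and 4, then 2, 3 and 3 RPKM in the same order of groups, and was not called with the filter at 1 RPKM or with no filter. TET1 (ENSG00000138336, chromosome 10, 68560337 to 68694487, plus strand) was listed at 0 in all 12 libraries.

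IDH1 moved the other way and with ATRA. This gene (ENSG00000138413, chromosome 2, 208236229 to 208266074, minus strand) had 30, 39 and 32 RPKM in untreated libraries, 43, 59 and 53 with ATRA, 33, 42 and 37 with palbociclib and 44, 57 and 54 with the combination. Every library with ATRA, alone or in combination, lay above every library without it. With the combination the mean was 153.5% of the untreated mean (log2 difference 0.62, SE 0.147, interval 0.29 to 0.94, limma adjusted p = 0.00935), a call made in all 23 alternatives at this threshold. With ATRA alone the mean was the same (0.61, interval 0.29 to 0.94, adjusted p = 0.0133), but the call was lost without untreated replicate 1 (0.064), ATRA replicate 2 (0.0588) or ATRA replicate 3 (0.0502), and with only both groups compared in the fit (0.0538). Without the treated replicate 1 libraries it was kept (0.00693). With palbociclib the difference was 0.15 (interval -0.17 to 0.48, adjusted p = 0.678).

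IDH2 (ENSG00000182054, chromosome 15, 90083045 to 90102477, minus strand) followed with a smaller difference. It had 38, 42 and 42 RPKM in untreated libraries, 45, 43 and 47 with ATRA, 39, 39 and 37 with palbociclib and again 45, 43 and 47 with the combination. Libraries with ATRA lay above all others. The log2 difference from untreated cells was 0.15 both with ATRA (interval 0.014 to 0.28, limma adjusted p = 0.114) and with the combination (adjusted p = 0.0911), and neither was called.

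Counted over the genes that passed the filter, 1 of 6 was lower with ATRA (UHRF1) and 1 higher (IDH1), where 11.6% of all genes tested were called lower and 8.71% higher. With palbociclib 2 were lower (UHRF1 and HELLS) and 0 higher, against 3.16% and 0.908% of all genes. With the combination 3 were lower (UHRF1, HELLS and DNMT1) and 1 was higher (IDH1), against 17.7% and 12.7%. The median log2 difference of the 6 genes was -0.19 with ATRA, -0.21 with palbociclib and -0.27 with the combination, and the median of all genes lay between -0.012 and 0. HELLS enters these counts and medians by way of the filter. Without the treated replicate 1 libraries, DNMT1 was also lower with palbociclib, and the counts with ATRA and the combination were as before.

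**Figure D2:**
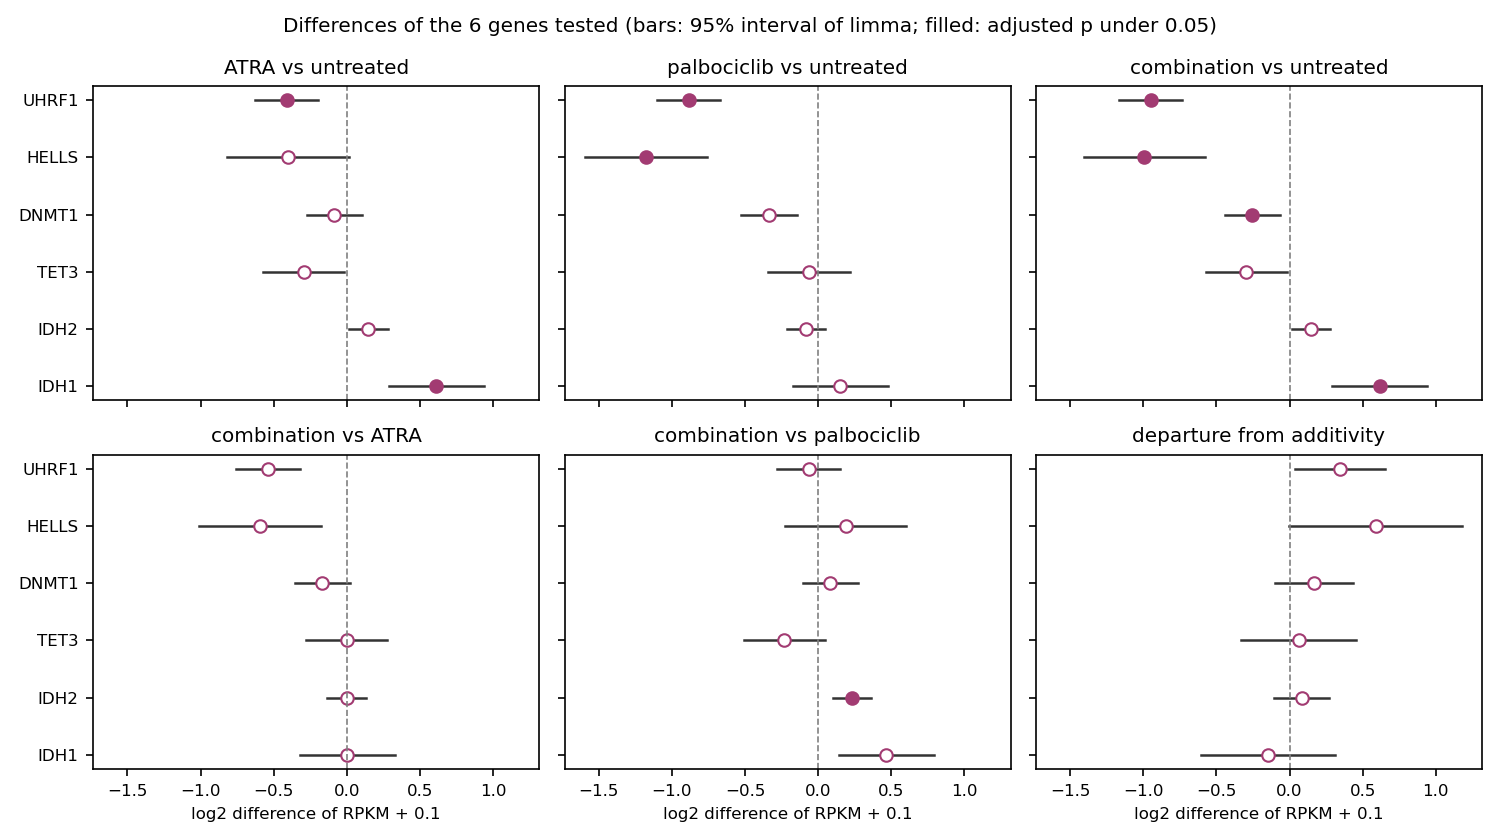
Log2 difference of RPKM + 0.1 (horizontal axes) for the 6 genes tested in the 6 comparisons; points are limma estimates, bars are 95% intervals and filled points have an adjusted p under 0.05. UHRF1 is at -0.89 with palbociclib and -0.95 with the combination, and IDH1 at 0.61 with ATRA and 0.62 with the combination.

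Adding palbociclib to ATRA was examined by comparing the combination with ATRA alone. None of the 6 genes was called, and 0.115% of all genes were called lower and 0 higher. At an unadjusted p under 0.05, UHRF1 and HELLS were lower, among 243 genes lower and 44 higher in all. UHRF1 differed by -0.54 (SE 0.098, interval -0.76 to -0.32, limma adjusted p = 0.0895) and HELLS by -0.59 (SE 0.188, adjusted p = 0.661). Treated libraries with the same replicate number deviated together from their group means, and when that number entered the fit as a block UHRF1 was called (adjusted p = 0.00299), as 0.639% of all genes were. In a block fit of the treated libraries alone its adjusted p was 0.0123. From ATRA to the combination, UHRF1 was lower by 10, 12 and 16 RPKM in the libraries numbered 1, 2 and 3, DNMT1 by 3, 3 and 5 and HELLS by 1, 1 and 2.

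The erasers and IDH2 had the same listed value in each same-numbered pair of ATRA and combination libraries. TET2, TET3 and IDH2 differed by 0 in each of the 3 pairs, and IDH1 by 1, -2 and 1 RPKM. TET1 was at 0, and TET2 (2 or 3 RPKM) and TET3 (5 or 6 RPKM) lay within a few rounding steps of 0. Equal whole numbers there can hide a smaller change. The 95% interval of the difference was -0.32 to 0.33 for IDH1, -0.13 to 0.13 for IDH2 and -0.28 to 0.28 for TET3 (log2). TET2 did not pass the filter and has no interval. Differences within these bounds could have been missed. The intervals are from the fit without the replicate block and are not a detection limit. In that fit UHRF1 differed by -0.54 between the same groups and was not called.

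For the addition of ATRA to palbociclib, the combination was compared with palbociclib alone. IDH2 was higher (log2 difference 0.23, SE 0.06, interval 0.098 to 0.36, limma adjusted p = 0.0279), the only call among the 6 genes, where 6.64% of all genes were called lower and 5.86% higher. The call on IDH2 was lost without palbociclib replicate 2 (0.0576) or 3 (0.103), without combination replicate 1 (0.0546) or 3 (0.101), without all treated replicate 1 libraries (0.0824) and with only both groups compared in the fit (0.0578). IDH1 was higher by 0.47 (interval 0.14 to 0.79, adjusted p = 0.0662) and was called with the replicate number as a block (adjusted p = 0.000221), a fit in which 10.1% of all genes were called higher. It was also called without ATRA replicate 1 (0.0457) or combination replicate 1 (0.0354). In same-numbered pairs, IDH1 was higher by 11, 15 and 17 RPKM and IDH2 by 6, 4 and 10. TET2 and TET3 were each lower by 1 RPKM, the rounding step, in all 3 pairs. UHRF1 differed by 0, -2 and -2 RPKM (log2 interval -0.28 to 0.15, adjusted p = 0.789) and DNMT1 by 1, 2 and 2 RPKM (adjusted p = 0.671).

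**Figure D3:**
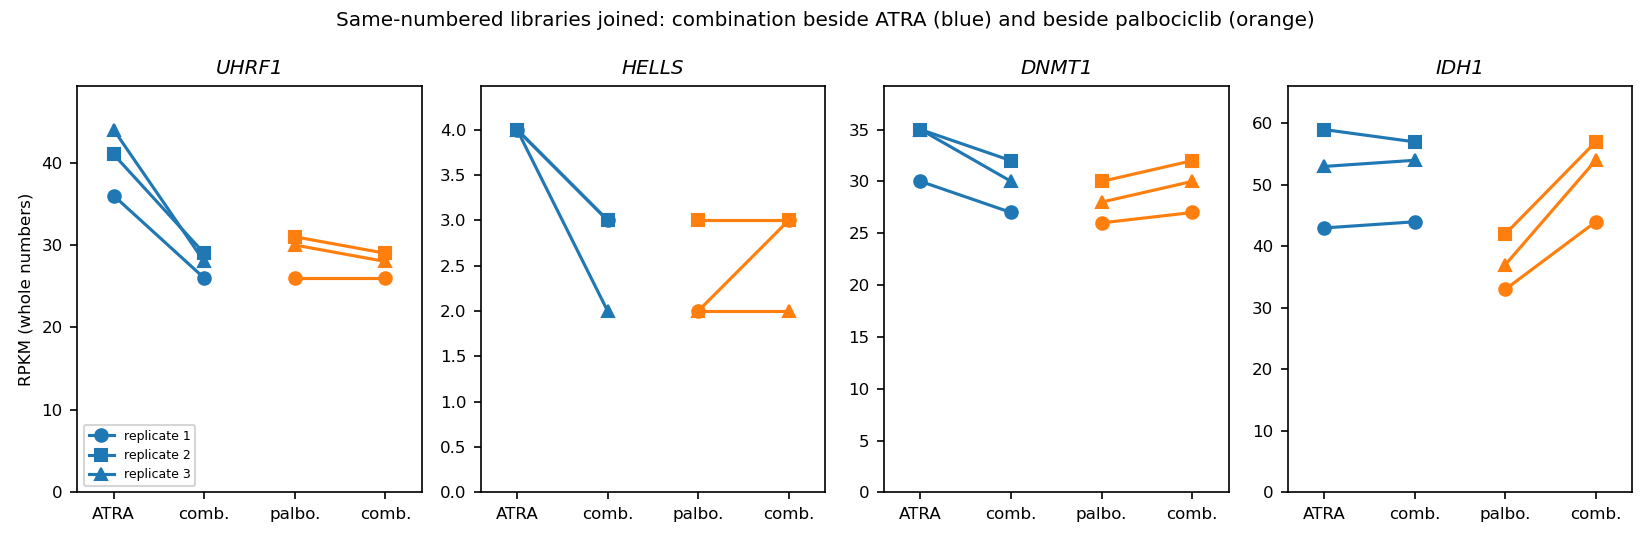
RPKM (vertical axes, each from 0) of UHRF1, HELLS, DNMT1 and IDH1 in same-numbered libraries, joined from ATRA to the combination (blue) and from palbociclib to the combination (orange); circles, squares and triangles are replicates 1, 2 and 3. UHRF1 falls along all 3 blue lines, by 10 to 16 RPKM, and IDH1 rises along all 3 orange lines, by 11 to 17 RPKM.

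Departure from additivity was taken as the log2 difference that palbociclib made in the presence of ATRA less the one it made in its absence. It was positive for UHRF1 (0.35, SE 0.139, interval 0.039 to 0.65, unadjusted p = 0.0307 from limma), DNMT1 (0.17) and HELLS (0.59, interval -0.00078 to 1.18), and negative for IDH1 (-0.15). Limma called 0 of the 7820 genes in either direction (0%), and 82 genes were lower and 154 higher at an unadjusted p under 0.05. UHRF1 was the only one of the 6 genes under 0.05 before adjustment.

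Over the 12 libraries the maintenance genes varied together. Pearson's r of log2(RPKM + 0.1) was 0.900 for UHRF1 and HELLS, 0.882 for DNMT1 and UHRF1, and 0.831 for DNMT1 and HELLS, and it was 0.681 for IDH1 and IDH2 and -0.699 for TET3 and IDH2. These values include the differences between groups and libraries and are descriptions. Among all genes tested, those closest to DNMT1 were CASP8AP2 (r = 0.972), FANCI (0.960) and DCLRE1A (0.959), of which FANCI and DCLRE1A act in the repair of DNA crosslinks. Those closest to UHRF1 were its pseudogene AC112777.1 and WEE1, the kinase that holds back entry into mitosis (both 0.972), and RPA1, a subunit of the protein that coats single-stranded DNA (0.971). For HELLS they were WDR76 (0.970), RFC5 of the clamp loader (0.969) and RRM1 of ribonucleotide reductase (0.968).

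Among the genes most like IDH1 were TMEM173 (r = 0.987), which encodes the innate immune adaptor STING, and SH2D3C (0.981). TMEM173 had a mean of 5.67 RPKM in untreated cells, 11.3 with ATRA, 7 with palbociclib and 12.3 with the combination. TET3 was closest to CCDC88C (0.962), CCDC88A (0.950) and ASAP1 (0.950). IDH2 was closest to EME1 (0.902), VAPA (0.899) and NECTIN1 (0.891), a looser likeness than for the other 5 genes.

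**Figure D4:**
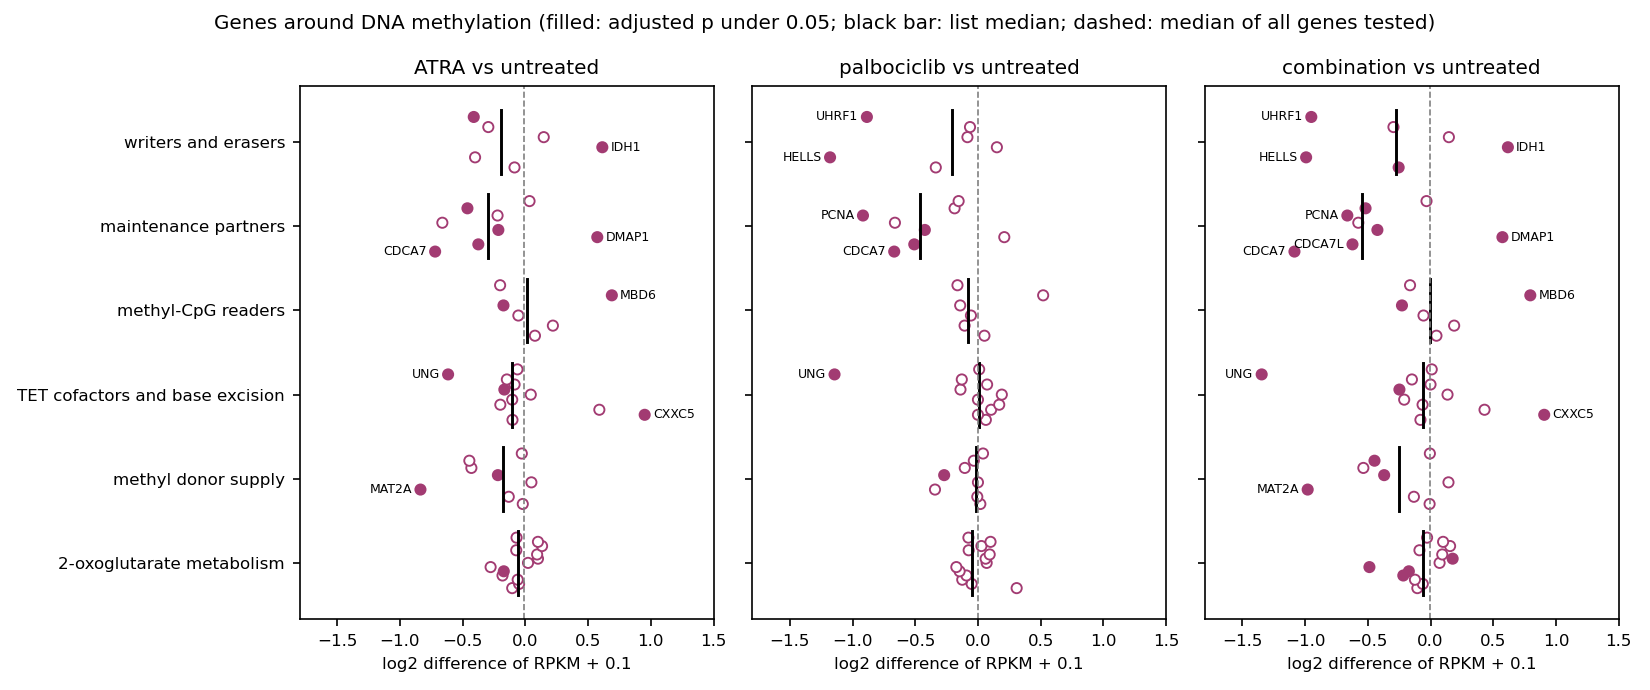
Log2 difference of RPKM + 0.1 from untreated cells (horizontal axes) for the tested genes of 6 lists; filled points have a limma adjusted p under 0.05, black bars are list medians and dashed lines the median of all genes tested. Maintenance partners have medians of -0.30 with ATRA, -0.47 with palbociclib and -0.55 with the combination, while 13 genes of 2-oxoglutarate metabolism have medians between -0.062 and -0.05.

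Of 10 partners of maintenance methylation, 8 passed the filter. With ATRA 4 were lower and 1 higher, with palbociclib 4 lower and 0 higher, and with the combination 5 lower and 1 higher. Over all genes tested, 11.6% were lower and 8.71% higher with ATRA, 3.16% and 0.908% with palbociclib, and 17.7% and 12.7% with the combination. CDCA7, which recruits HELLS to chromatin, had 59.3 ± 1.15 RPKM in untreated cells, 36.0 ± 1.0 with ATRA, 37.3 ± 1.53 with palbociclib and 28.0 ± 2.65 with the combination (n = 3 each). It was lower in all 3 comparisons with untreated cells (log2 differences -0.72, -0.67 and -1.08, limma adjusted p = 3.41e-05, 0.000373 and 1.6e-06) and in the combination against palbociclib (-0.42, adjusted p = 0.00179). Against ATRA the combination differed by -0.37, with an adjusted p of 0.0895 without the replicate block and 0.0431 with it.

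PCNA, the replication clamp that binds DNMT1, had 264.3 ± 10.4 RPKM in untreated cells and fell with palbociclib to 141.7 ± 27.0 (log2 difference -0.92, limma adjusted p = 0.00768) and with the combination to 168.7 ± 30.5 (-0.66, adjusted p = 0.00778). With ATRA it had 227.3 ± 23.6 RPKM (adjusted p = 0.353). LIG1, the ligase of replication whose methylated form UHRF1 binds, was lower in all 3 (-0.22, -0.42 and -0.42, adjusted p = 0.0428, 0.00583 and 0.000806), as was CDCA7L, the paralogue of CDCA7 (-0.38, -0.51 and -0.62, adjusted p = 0.00393, 0.00336 and 0.000103). UHRF2, the paralogue of UHRF1, was lower with ATRA (-0.46, adjusted p = 0.00544) and the combination (-0.52, adjusted p = 0.00187), and with palbociclib it differed by -0.19 (adjusted p = 0.343). DMAP1, which binds DNMT1, was the 1 gene called higher, at 4 RPKM in all untreated libraries against 6 in all ATRA and combination libraries (0.57 in both, adjusted p = 0.00111 and 0.000738). It passed the filter only through the groups with ATRA, where it was highest, so as with HELLS these tests are not support. USP7, the deubiquitinase that stabilises UHRF1 and DNMT1, was at 26 to 31 RPKM and was not called in any comparison.

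Of 10 readers of methylated DNA, 6 passed the filter, and MBD4, a glycosylase for T:G mismatches, was lower and MBD6, a relative that is not known to bind methylated sites, higher with ATRA and with the combination. The log2 difference of MBD6 was 0.69 with ATRA (limma adjusted p = 0.0193) and 0.80 with the combination (adjusted p = 0.00654), and that of MBD4 was -0.17 (adjusted p = 0.045) and -0.23 (adjusted p = 0.00962). With ATRA and with the combination 1 lower and 1 higher of 6 stand beside 11.6% and 8.71%, and 17.7% and 12.7%, of all genes. With palbociclib limma called 0 of the 6, where 3.16% of all genes were called lower and 0.908% higher. At an unadjusted p under 0.05, 1 was lower and 1 higher, among 790 lower and 569 higher of the 7820 genes.

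Of 15 cofactors of the TET enzymes and of base excision, which replaces the oxidised base, 11 passed the filter. With ATRA 2 were lower and 1 higher, with palbociclib 1 lower and 0 higher, and with the combination 2 lower and 1 higher. Over all genes tested, 11.6% were called lower and 8.71% higher with ATRA, and 3.16% and 0.908% with palbociclib. The 3 of 11 called with the combination are near the share of all genes called there, 17.7% lower and 12.7% higher. CXXC5, a CpG-binding protein known to act on TET2, had 11.3 ± 0.577 RPKM in untreated cells and with palbociclib, 22 ± 1.0 with ATRA and 21.3 ± 1.15 with the combination (log2 differences 0.95 with ATRA and 0.91 with the combination, limma adjusted p = 4.94e-06 and 4.83e-06). UNG, which removes uracil and not the bases that TET enzymes make, fell from 44.3 ± 2.08 to 29 ± 3.46 RPKM with ATRA (adjusted p = 0.0326), 20.3 ± 4.51 with palbociclib (adjusted p = 0.00579) and 17.7 ± 4.04 with the combination (adjusted p = 0.000259). PARP1, a sensor of DNA breaks, was lower with ATRA (-0.17, adjusted p = 0.0227) and the combination (-0.25, adjusted p = 0.00187). TDG, the glycosylase that removes the bases that TET enzymes oxidise, was at 24 to 28 RPKM and was not called.

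On the supply of methyl groups, 8 of 10 genes passed the filter. With ATRA 2 were lower, with palbociclib 1 and with the combination 3, and 0 were higher in each. Over all genes tested, 11.6% were lower and 8.71% higher with ATRA, 3.16% and 0.908% with palbociclib, and 17.7% and 12.7% with the combination. MAT2A, which makes the methyl donor S-adenosylmethionine, had 105.7 ± 14.3 RPKM in untreated cells, 59.3 ± 10.0 with ATRA, 83.3 ± 11.9 with palbociclib and 53.7 ± 8.5 with the combination. It was lower with ATRA (log2 difference -0.84, limma adjusted p = 0.00409), with the combination (-0.98, adjusted p = 0.00107) and in the combination against palbociclib (-0.64, adjusted p = 0.024), while with palbociclib alone it differed by -0.34 (adjusted p = 0.31). MTHFD1, of the folate cycle, was lower in all 3 comparisons with untreated cells (-0.22, -0.27 and -0.37, adjusted p = 0.0266, 0.0363 and 0.00106), and MTRR with the combination (-0.45, adjusted p = 0.0471). AHCY, which clears the product of the methyl transfer, was at 69 to 78 RPKM in all libraries and was not called.

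In the metabolism of 2-oxoglutarate around IDH1 and IDH2, 13 of 14 genes passed the filter. With ATRA 1 was lower (GLUD1, -0.17, limma adjusted p = 0.0474), where 11.6% of all genes were lower and 8.71% higher. With palbociclib 0 were called, against 3.16% and 0.908% of all genes. At an unadjusted p under 0.05, 2 were lower, among 790 lower and 569 higher of the 7820 genes. With the combination 3 were lower and 1 higher, near the 17.7% and 12.7% of all genes. Those with the combination were IDH3A (-0.49, adjusted p = 0.00529) and IDH3G (0.18, adjusted p = 0.043), subunits of the isocitrate dehydrogenase of the citric acid cycle, the fumarase FH (-0.22, adjusted p = 0.0348) and glutamate dehydrogenase GLUD1 (-0.17, adjusted p = 0.0346). None of these reached the size of the difference of IDH1.

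Between the combination and palbociclib alone, the share of all genes called rose with the replicate block from 6.64% to 13.4% lower and from 5.86% to 10.1% higher, and the counts of some lists rose too. The partners of maintenance had 2 lower and 1 higher with and without it. The cofactors and base excision genes had 0 lower and 1 higher without it and 2 lower and 1 higher with it, and the methyl donor genes 1 lower and 0 higher without it and 2 lower and 1 higher with it. The readers went from 0 to 1 higher (MBD2) and 2-oxoglutarate metabolism from 0 to 2 lower (IDH3A and D2HGDH). Between the combination and ATRA, 0 genes of the 5 lists were called without the block, where 0.115% of all genes were called lower. With the block CDCA7 and UNG were lower, as 0.639% of all genes were. At an unadjusted p under 0.05 and without the block, 243 of the 7820 genes were lower and 44 higher in that comparison. Among the lower ones were 4 maintenance partners, 1 cofactor or base excision gene and 1 methyl donor gene.

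Genes used as a check of treatment differed with each agent. DHRS3, a retinoid target, was at 0 or 1 RPKM without ATRA and at 40 to 48 with ATRA alone, and HIC1, another, was at 0 in every library without ATRA and at 8 to 11 with ATRA alone. The retinoid target CYP26A1 was listed at 0 in every library. CCNE1, an E2F target, had 14.3 ± 1.15 RPKM in untreated cells and 5 in each palbociclib library (log2 difference -1.50, limma adjusted p = 7.36e-05). E2F1 itself had 12.7 ± 1.15 and 4.67 ± 0.577 RPKM in these groups (-1.42, adjusted p = 0.000287). With ATRA alone both were also lower than in untreated cells, at 8.33 ± 0.577 RPKM each (-0.77 and -0.60, adjusted p = 0.00032 and 0.00837). They were lower in the combination than with ATRA alone (limma adjusted p = 0.00679 and 0.00695), the comparison in which UHRF1 was called only with the replicate block. E2F1 passed the filter only through the untreated and ATRA groups, where it was highest. As with HELLS, its tests of groups with palbociclib against these are not support.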

How the data were processed

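Poly(A) RNA of HL-60 cells was sequenced in 12 libraries. The authors mapped reads to hg38 with HISAT2, counted them with htseq-count at default settings and tested them with voom in Degust; versions and annotation are not given in the sources used here. The deposited score values are RPKM that the authors rounded to whole numbers, without pooling. Read counts were not used here, so depth and counting error are unknown, and no column was left out (0 unmatched columns).

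The genes and lists were chosen with earlier results of these data known. Limma 3.58.1 (R 4.3.3; Python 3.11.15 for tables) was fitted to log2(RPKM + 0.1) with 1 mean per group over 12 libraries, eBayes with trend, on 7820 genes with at least 5 RPKM in at least 3 libraries. Adjustment (Benjamini-Hochberg) was within each of 6 comparisons, called under 0.05, the significance level of the study's methods; 0.001 was an alternative. The design had assumed RPKM with decimals; the test was kept for the whole numbers. The script was tested on simulated data.

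The study's methods speak in general of independent experiments, and neither they nor the labels say what replicate numbers share. Deviations from group means of same-numbered libraries correlated at 0.782 to 0.908 (ATRA and combination), 0.497 to 0.751 (ATRA and palbociclib) and 0.438 to 0.702 (palbociclib and combination), and the treated libraries were taken as paired by number. With untreated libraries the correlations were 0.0453 to 0.367, not all above 0.1.

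Named were the 10 genes, the list genes called in any comparison with a few abundant others, and the 3 genes with the highest Pearson r to each tested gene, of which 1 is not reported here. Coordinates are from GENCODE v44 (GRCh38) and upstream sequences from RefSeq (GRCh38.p14; all 10 genes matched by symbol). Near-identical copies (at least 95% over 300 bases, blastn 2.17.0+) were searched for the 10 genes only. Alternatives were the pseudocount, the filter, scaling, the variance model, the replicate block, the libraries fitted, the threshold and leaving out each library.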

Additional observations from a re-analysis of the deposited data

How the results depend on the processing

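The calls of UHRF1 and HELLS under palbociclib and the combination, and of IDH1 under the combination, were made in every alternative at the threshold of 0.05 in which the gene passed the filter. HELLS passed the filter at 5 RPKM only through the untreated group, where it was highest, so its calls there are not support. Without each library in turn, the number of the 10 genes called ranged from 0 to 1 lower and 0 to 1 higher with ATRA, 2 to 3 lower with palbociclib, 2 to 3 lower and 1 to 1 higher with the combination, and 0 to 2 higher for the combination against palbociclib; the other counts were 0. With the filter at 10 RPKM, where HELLS and TET3 drop out, 1 was lower with palbociclib. At an adjusted p under 0.001, 0 were lower and 0 higher with ATRA, 1 was lower with palbociclib, 1 lower and 0 higher with the combination, and 0 higher in the combination against palbociclib. With only both groups compared in the fit, 0 were higher with ATRA and 0 in the combination against palbociclib. The shares of all genes called in these alternative fits are not given here. The counts therefore only show how the calls depend on the settings.

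With the replicate block, 1 was lower in the combination against ATRA and 2 were higher against palbociclib. Of all genes, 0.639% and 10.1% were called there. In a block fit of the 9 treated libraries, chosen after seeing the data, the counts were 1 and 2, with no share of all genes given. There 1 more was lower against palbociclib (TET3, limma adjusted p = 0.00094). The difference of TET3 is -1 RPKM in each pair, so the spread between pairs is near 0. The block also called DNMT1 lower with palbociclib (adjusted p = 0.00391, 8.13% of all genes lower) although the numbers do not pair untreated libraries; it changed no other call of the 10 genes.

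Signs changed 12 times, all in differences that were not called. HELLS in the combination against palbociclib was -0.14 with quantile normalization. Without untreated, ATRA or palbociclib replicate 1, the departure of TET3 was -0.037, -0.023 and -0.0096, and TET3 with palbociclib was 0.037 and 0.0096 without untreated or palbociclib replicate 1; over all libraries left out, the departure of TET3 lay between -0.037 and 0.17 and its difference with palbociclib between -0.17 and 0.037. IDH1 in the combination against ATRA was -0.12, -0.072 and -0.033 without ATRA replicate 1, combination replicate 2 or combination replicate 3, and at most 0.11 without combination replicate 1. With the 3 treated replicate 1 libraries left out together, an alternative also added after seeing the data, these 3 quantities were -0.0096 (departure of TET3), 0.0096 (TET3 with palbociclib) and -0.011 (IDH1), and 0 genes were higher in the combination against palbociclib. Other scalings moved the median of all genes by at most 0.022 (log2). The causes were not tested. The rounding limits what can be seen in DNMT3A, DNMT3B, TET1 and TET2.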
